A study of Rattus norvegicus with 18 samples.

Results

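The isoforms described here were higher in the cell body layer of hippocampal area CA1 than in its neuropil in every available library. An isoform was taken when the lower of its values in 2 somata libraries was at least 5 TPM and at least 2 times the higher of its values in 2 neuropil libraries. TPM is the share of a library's transcripts given to an isoform, corrected for its length and brought to a common total in each library. The rule took 455 of the 28268 full-length transcripts (FLTs), or 1.61%. The mirrored rule, neuropil over somata with the same limits, took 680 or 2.41%. Because the values in these 4 libraries chose the isoforms, the difference between the layers is described below without a test.

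The study sequenced RNA from Sprague Dawley rats of 4 weeks of age. Hippocampal slices came from male animals, and their CA1 somatic and neuropil layers were dissected by hand. Whole hippocampus, somata and neuropil have 2 libraries each in the mRNA-seq set, and whole brain lysate was separated on sucrose gradients with cycloheximide into ribosome-free, monosome and polysome RNA, with 2 libraries each. The animals carried no named treatment, allele or transgene. A layer is a tissue piece and not a purified cell type, and the sources do not say whether replicate libraries came from separate animals, so the p-values measure only the spread between these libraries.

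In CA1, the cell bodies of pyramidal neurons lie in one compact layer, and the neuropil beside it holds mostly their dendrites, incoming axons and glial processes. Most mRNAs stay near the nucleus where they are made, while a subset is carried into dendrites and axons and translated there. In a sucrose gradient, RNA with no ribosome, with 1 ribosome and with several ribosomes separates by size, and RNA in the polysome fraction is generally taken as the most actively translated. The fractions here came from whole brain and hold many cells other than CA1 neurons.

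Replicate libraries of the layers were not much closer to each other than to the other layer. On the log2(TPM + 1) scale, and over the 20393 isoforms whose mean reached 1 TPM, Pearson's r was 0.84 between the somata libraries, 0.77 between the neuropil libraries and 0.75 to 0.81 between layers. These correlations run across isoforms of libraries quantified together and describe the libraries only. Neuropil replicate 2 was closer to both somata libraries (0.80 and 0.81) than to neuropil replicate 1. Without neuropil replicate 1 the rule would take 1099 isoforms, and without neuropil replicate 2 it would take 1613. Without somata replicate 1 or 2 it would take 1172 or 1303.

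The somata-high isoforms made up 2.12% and 2.11% of all TPM in the somata libraries and 0.517% and 0.684% in the neuropil libraries. The median of their lower somata value was 13.2 TPM, with quartiles of 7.84 and 30.6 TPM and extremes of 5.02 and 1474 TPM. In 177 of them (38.9%) it was under 10 TPM, and in 33 it was at least 100 TPM. In these bulk pieces, fewer cells of a type and less RNA per cell cannot be told apart.

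At the neuropil end, 128 of the 455 (28.1%) were listed at 0 TPM in both neuropil libraries and another 128 in 1 of them. The remaining 199 were above 0 in both. The ratio of the lower somata to the higher neuropil value could be formed for 327 isoforms and had a median of 2.54. It lay between 2 and 3 in 215 isoforms, between 3 and 5 in 65, between 5 and 10 in 18, and at 10 or more in 29. Many isoforms therefore lay close to the limit. From 2 to under 2.1 there were 45, with a median lower somata value of 27.9 TPM, and from 1.9 to under 2 there were 59 that missed the rule, with 28.2 TPM. At the other limit, 23 isoforms lay from 5 to under 5.5 TPM and 38 past the ratio lay from 4.5 to under 5 TPM. The somata replicates differed by a median of 0.32 on the log2 scale, and by more than 2 times in 48 isoforms.

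**Figure D1:**
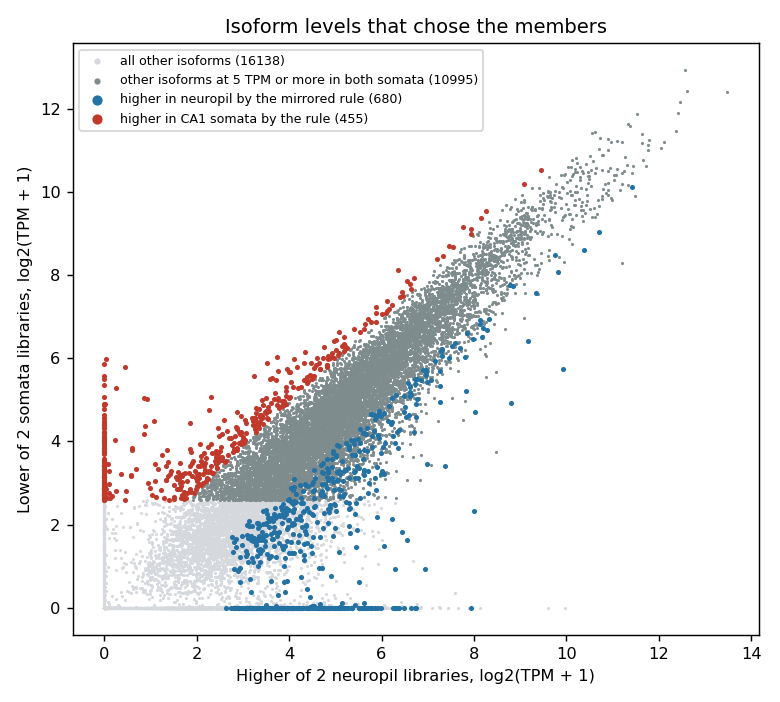
Each point is 1 of 28268 isoforms, with the higher of its 2 neuropil values on the x axis and the lower of its 2 somata values on the y axis, both as log2(TPM + 1), so red points sit above the limit by construction. The 455 isoforms chosen by the rule form a band along that limit, with the 128 that are listed at 0 in both neuropil libraries in a column at the left edge, and the 680 of the mirrored rule, chosen on the lower neuropil and the higher somata value, are blue.

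A list chosen in 1 pair of libraries was read in the other pair, which it had not used. Of 2919 isoforms past both limits in the libraries numbered 1, 1728 (59.2%) were higher in somata in the libraries numbered 2, and 631 (21.6%) were past the same limits there, against 7.88% of all isoforms. In the same libraries, 346 (11.9%) were past the mirrored limits, against 9.80% of all isoforms. Of 2228 chosen in the libraries numbered 2, 1181 (53.0%) were higher in somata in the libraries numbered 1, 631 (28.3%) were past again, against 10.3% of all isoforms, and 399 (17.9%) were past the mirrored limits, against 12.9%. Most isoforms chosen in a single pair were thus not past the limits in the second. Both the same and the mirrored limits were passed at more than the overall share. These are the libraries that the rule used, and all isoforms include those at 0 TPM, whose part in this was not tested. Nothing is read from it.

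The tables carry isoform identifiers without gene names, and names were taken only from 2 lists in which the study pairs isoforms with genes, one on changed signal peptides and one on open reading frames outside the annotated ones. These name 543 of the isoforms, from 385 genes or gene pairs, and 12 of the 455. Among the named isoforms 2.21% were thus somata-high, against 1.61% of all isoforms, and 3.87% passed the mirrored rule, against 2.41%. The 12 are all from the signal peptide list and belong to Auh, Grsf1, Ctsk, Prcp,Rab30, Slc39a7, Gramd1b, Lypd1, Trpc4, Xkr8,Smpdl3b, Cyp20a1, Anapc4 and RGD1305713. In that list 7 of the 12 lose a signal peptide and 5 gain one, through a changed N-terminus. Over all its matched isoforms, 376 lose one and 140 gain one, and nothing is read from counts as small as those of the 12. The protein functions and locations given below are those of the genes, and whether these isoforms keep them was not tested. The reads of the 12 are 1178 to 3079 nt long. Names joined by a comma are the study's own label for a transcript that it assigns to both genes. No file used here holds the sequence of these isoforms, so none is shown.

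Of the 12, 2 are isoforms of genes for mitochondrial proteins. Auh encodes an enzyme of leucine breakdown that also binds AU-rich RNA. Its isoform had 8.54 and 11.5 TPM in somata, 2.01 and 1.56 TPM in neuropil, and 2.58 and 3.13 TPM in whole hippocampus. The lower somata value was 4.25 times the higher neuropil value, while the whole hippocampus libraries, quantified in a separate table, resembled the neuropil more than the somata. Grsf1 encodes an RNA-binding protein of mitochondrial RNA granules. Its somata-high isoform of 2641 nt had 90.3 and 63.4 TPM in somata against 25.5 and 20.8 TPM in neuropil, and 71.6 and 92.8 TPM in hippocampus.

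Grsf1 has 5 named isoforms, and the other 4 did not show the somata-high pattern. Its isoform of 2252 nt had 34.2 and 66.9 TPM in somata and 77.5 and 71.4 TPM in neuropil. Summed over the 5 isoforms, the chosen one included, Grsf1 had 156 and 155 TPM in somata and 125 and 135 TPM in neuropil. This difference was smaller than that of the single isoform. RSEM, the program that estimated the levels, shares out reads that match several isoforms of a gene, and its part in this difference was not tested.

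A further 3 of these genes also had other named isoforms. Lypd1 encodes a membrane-anchored protein that modulates nicotinic acetylcholine receptors. Its isoform of 1603 nt had 23.4 and 19.2 TPM in somata and was listed at 0 in both neuropil and both hippocampus libraries. The second Lypd1 isoform, of 2143 nt, had 24.2 and 31.4 TPM in somata, 33.9 and 39.1 TPM in neuropil and 88.6 and 71.3 TPM in hippocampus. The sum of the 2 was 47.6 and 50.5 TPM in somata and 33.9 and 39.1 TPM in neuropil. It includes the isoform that the rule chose on these values, while the second isoform alone was higher in both neuropil libraries.

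The isoform of Cyp20a1, which encodes a cytochrome P450 of unassigned substrate, had 19.0 and 12.8 TPM in somata and 2.20 and 6.14 TPM in neuropil. Over the 4 named Cyp20a1 isoforms the layers overlapped, with 23.9 and 18.9 TPM in somata and 2.20 and 23.9 TPM in neuropil. RGD1305713 had 5.51 and 14.3 TPM in somata for its isoform of 1778 nt, which was listed at 0 in both neuropil and both hippocampus libraries. Over its 3 named isoforms, the chosen one included, it had 42.5 and 35.2 TPM in somata and 26.9 and 22.1 TPM in neuropil.

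Another 4 isoforms are of genes whose proteins belong to lysosomes and the membranes of the secretory route. Ctsk encodes cathepsin K, a lysosomal cysteine protease. It had 69.1 and 65.6 TPM in somata, 27.2 and 27.8 TPM in neuropil and 19.5 and 17.2 TPM in hippocampus, and its replicates lay close together in each group. Prcp encodes a lysosomal carboxypeptidase and Rab30 a small GTPase of the Golgi. The joint isoform had 13.2 and 9.25 TPM in somata and 3.66 and 4.45 TPM in neuropil, with hippocampus values of 11.7 and 1.02 TPM that were far apart. Slc39a7 encodes a zinc transporter of the endoplasmic reticulum and Golgi. It had 10.5 and 20.2 TPM in somata, was listed at 0 in both neuropil libraries, and was listed at 0 in one hippocampus library and at 19.3 TPM in the other. Gramd1b encodes a cholesterol carrier at contacts between the endoplasmic reticulum and the plasma membrane. It had 7.70 and 6.46 TPM in somata, 0 and 2.99 TPM in neuropil, and 4.64 and 12.3 TPM in hippocampus.

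The remaining 3 named isoforms are those of Trpc4, Xkr8,Smpdl3b and Anapc4. Trpc4 encodes a cation channel subunit. Its isoform had 8.55 and 6.94 TPM in somata, was listed at 0 in both neuropil libraries, and had 12.1 and 2.36 TPM in hippocampus. Xkr8 encodes a phospholipid scramblase and Smpdl3b a phosphodiesterase of the plasma membrane. Their joint isoform had 10.4 and 15.7 TPM in somata, 4.49 and 5.14 TPM in neuropil, and 8.95 and 26.1 TPM in hippocampus. Anapc4 encodes a subunit of the anaphase-promoting complex, a ubiquitin ligase. It had 6.57 and 6.34 TPM in somata, was listed at 0 in both neuropil libraries, and had 3.34 and 5.31 TPM in hippocampus.

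**Figure D2:**
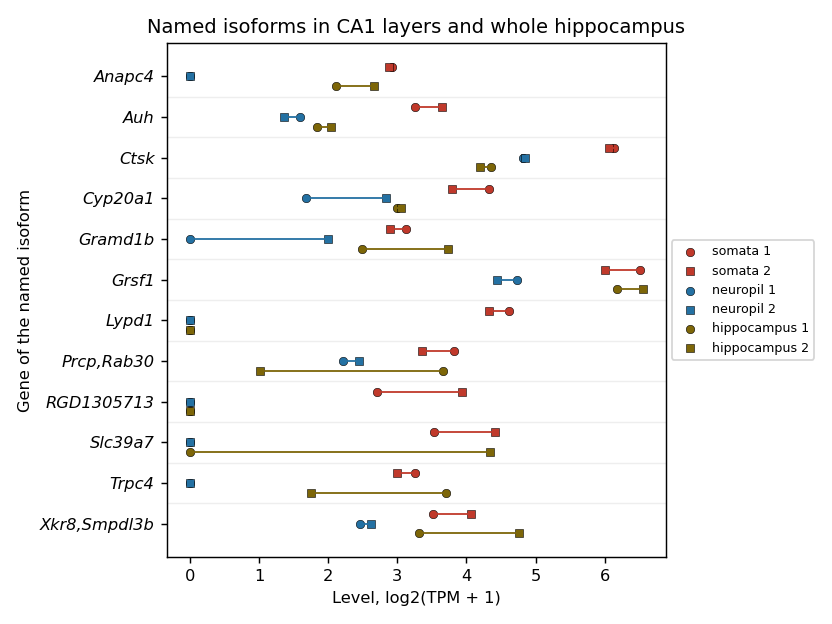
Level of the 12 named isoforms as log2(TPM + 1) on the x axis, with a circle for replicate 1, a square for replicate 2 and a line joining them, in somata (red), neuropil (blue) and whole hippocampus (brown), which was quantified in a separate table. Somata lie to the right of neuropil in all 12 because the rule required it, 5 are listed at 0 in both neuropil libraries, and Slc39a7 runs from 0 to 19.3 TPM between the hippocampus libraries.

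Among isoforms without a gene name, the highest in somata was a short one of 402 nt. It had 1496 and 1474 TPM in somata, 558 and 698 TPM in neuropil, and 1032 and 976 TPM in hippocampus. The next, of 4590 nt, had 1181 and 1163 TPM in somata, 346 and 542 TPM in neuropil and 511 and 676 TPM in hippocampus. For the isoform of 402 nt the hippocampus values lay between those of the 2 layers, and for that of 4590 nt the lower hippocampus value lay within the neuropil range.

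The tissue labels were checked against marker genes of other cells, as far as the 2 lists name an isoform of them. None of the 18 isoforms of 14 astrocyte genes, 14 of 9 microglial genes, 4 of 4 oligodendrocyte genes and 19 of 15 vascular genes was among the 455, against 1.61% of all isoforms, while 1, 1, 0 and 3 of them passed the mirrored rule, against 2.41%. The astrocyte isoforms summed to 708 and 815 TPM in somata and 1241 and 1457 TPM in neuropil. The microglial ones summed to 102 and 110 TPM in somata and 214 and 209 TPM in neuropil, the oligodendrocyte ones to 142 and 149 TPM against 202 and 224 TPM, and the vascular ones to 442 and 401 TPM against 593 and 616 TPM. All 4 sums were thus lower in both somata libraries than in both neuropil libraries. The microglial sum was carried by C1qb, with 79.3 and 77.5 TPM in somata and 182 and 161 TPM in neuropil, and without it the sums overlapped at 22.5 and 32.7 TPM in somata and 31.5 and 48.0 TPM in neuropil. Some isoforms went the other way, among them Dcn, picked out after its values were seen, with 51.6 and 24.1 TPM in somata and 12.4 and 7.0 TPM in neuropil. The isoforms of Slc7a10, Csf1r, Tmem144, Igfbp7 and Tie1 were listed at 0 in all 4 libraries. The part of cell makeup in the somata-high list was not tested, and no defining marker of CA1 pyramidal neurons has a named isoform here.

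In the neuronal and organelle lists, too, the counts were small. None of the 17 isoforms of 9 neuronal secretory genes, 18 of 11 neurotransmitter receptor genes, 20 of 17 synaptic vesicle and adhesion genes and 34 of 25 endoplasmic reticulum genes was among them. The lysosomal list held 1 of 34 isoforms (Ctsk), and the mitochondrial list held 2 of 41 (Auh and Grsf1). Beside 1.61% of all isoforms, nothing is read from counts this small. The mirrored rule, at 2.41% of all isoforms, took 2 lysosomal isoforms (Dpp7 and Glmp), 2 of the endoplasmic reticulum (Erlin2 and Krtcap2) and 0 of the other 4 lists. Summed levels overlapped between the layers for the secretory genes (6231 and 6392 TPM in somata, 5994 and 6900 TPM in neuropil), the lysosomal genes (697 and 716 TPM against 689 and 875 TPM) and the endoplasmic reticulum genes (2594 and 2518 TPM against 2308 and 2541 TPM). Most of the secretory sum was 1 Cpe isoform, with 4557 and 4800 TPM in somata and 4997 and 5625 TPM in neuropil. Of the 17 secretory isoforms, 9 were higher in both somata than in both neuropil libraries and 2 the reverse. The sums were lower in somata for the receptors (1607 and 1549 TPM against 1635 and 1657 TPM). They were higher in somata for the synaptic vesicle and adhesion genes (1497 and 1433 TPM against 1273 and 1189 TPM). The mitochondrial sum was also higher there (1098 and 1076 TPM against 925 and 981 TPM). It includes the Auh and Grsf1 isoforms that the rule chose on these values, so part of its difference was set by the rule. Grsf1's chosen isoform gave 90.3 and 63.4 TPM in somata and 25.5 and 20.8 TPM in neuropil. The lysosomal sum likewise includes the chosen Ctsk isoform. Single isoforms of the receptor, synaptic and mitochondrial lists were mixed. In that order, 6, 6 and 10 were higher in both somata libraries and 5, 4 and 6 in both neuropil libraries. The 10 include Auh and Grsf1. The receptor list shares its Gabrg1 and Grm3 isoforms with the astrocyte list. Gpm6a alone gave 659 and 557 TPM in somata and 509 and 242 TPM in neuropil to the synaptic sum. To the receptor sum, 1 Gabbr1 isoform gave 627 and 639 TPM in somata and 724 and 739 TPM in neuropil. The directions of these 2 sums are thus those of a few high isoforms.

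In whole hippocampus the somata-high isoforms had a median of 9.67 TPM, with quartiles of 3.98 and 23.9 TPM. Replicate 1 alone gave a median of 8.96 TPM, and replicate 2 gave 11.0 TPM. It was 5.38 TPM over all isoforms, 8.33 TPM over the 680 of the mirrored rule, and 30.6 TPM over the 11191 other isoforms with at least 5 TPM in both somata libraries. The last set was also higher in somata themselves, with a median of 29.9 TPM beside 16.8 TPM for the somata-high isoforms, and the mirrored set had 3.05 TPM there. Of the 455, 233 (51.2%) had at least 5 TPM in both hippocampus libraries, against 42.1% of all isoforms and 51.5% of the mirrored rule. The share was 86.9% in the other isoforms at 5 TPM in both somata libraries. Listed at 0 in 1 library were 84 (18.5%), against 16.0% of all isoforms and 4.16% of those others. A further 39 (8.57%) were listed at 0 in both. At 0 in both were 1.30% of the other isoforms at 5 TPM in both somata libraries and 23.5% of all isoforms. In 30 of the 455, a value of 0 in 1 hippocampus library stood beside 10 TPM or more in its replicate. Over all 28268 isoforms this held for 668.

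The hippocampus level went with how the isoform passed the rule. Its median was 16.8 TPM in the 215 isoforms with a ratio of 2 to under 3, 7.38 TPM in the 65 from 3 to under 5, 8.64 TPM in the 47 at 5 or more, and 6.15 TPM in the 128 listed at 0 in both neuropil libraries. The lower somata value moved with it, with medians of 22.7, 10.5, 9.88 and 8.61 TPM in the same order. Of the 39 isoforms at 0 in both hippocampus libraries, 24 were at 0 in both neuropil libraries too.

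**Figure D3:**
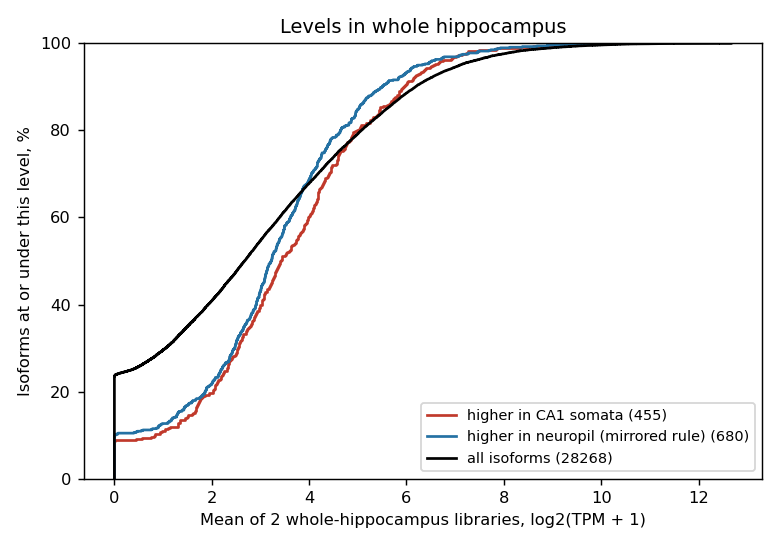
Cumulative share of isoforms in percent (y axis) by mean level in 2 whole-hippocampus libraries as log2(TPM + 1) (x axis). At 0 TPM the curve of the 455 somata-high isoforms (median 9.67 TPM) starts at 8.57%. That of the 680 of the mirrored rule (median 8.33 TPM) starts at 9.71%, and that of all 28268 isoforms at 23.5%. The part of the TPM limit of both rules in this was not tested.

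The ribosome fractions were not used by the rule and could be tested. Levels were compared on the log2(TPM + 1) scale with limma over all 19667 isoforms whose mean over the 6 libraries reached 1 TPM. Calls were made at a Benjamini-Hochberg adjusted p under 0.05. Of the 455 somata-high isoforms, 396 were tested, 59 had a lower mean, and 14 of those were listed at 0 in all 6 libraries. One somata-high isoform was at 0 in all 8 libraries other than those of the layers.

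Of the 396, 103 (26.01%) were higher in polysome than in ribosome-free RNA, against 34.1% of all tested isoforms, and 31 (7.83%) were lower, against 11.1%. The median log2 difference was 0.56, beside 0.63 over all tested isoforms. In monosome against ribosome-free RNA, 91 (23.0%) were higher, against 32.1%, and 24 (6.06%) were lower, against 7.30%, with a median of 0.60 beside 0.69. Between polysome and monosome RNA, 25 (6.31%) were higher, against 11.6%, and 28 (7.07%) were lower, against 11.6%, with a median of 0.06 beside -0.02. Somata-high isoforms were thus called at a lower share than isoforms at large in both directions of all 3 comparisons. The test of that difference in share was not run. No call was made in any comparison for 221 (55.8%), against 43.0% of all tested isoforms, and 66 (16.7%) were higher in both monosome and polysome than in ribosome-free RNA, against 23.1% of all tested isoforms.

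The direction of the calls depended on scaling. As deposited, 76.9% of the polysome against ribosome-free calls of somata-high isoforms were higher, and 51.7% with libraries scaled by median ratios, which gave 62 higher and 58 lower calls and moved the median of all tested isoforms from 0.63 to 0.12. In monosome against ribosome-free RNA the same scaling took this share from 79.1% to 49.4%. The share moved likewise over all tested isoforms, from 75.4% to 54.6% in polysome and from 81.4% to 50.8% in monosome against ribosome-free RNA. With a library left out, its group has 1 library and is taken to vary like the other groups in the fit. Without polysome replicate 1 or 2 the higher calls against ribosome-free RNA were 62 or 67, and without polysome replicate 2 the lower calls were 20. Without monosome replicate 1 or 2, 43 or 44 were higher and 9 or 11 lower in monosome than in ribosome-free RNA, and without ribosome-free replicate 1 the lower calls were 14. Between polysome and monosome RNA, 15 or 9 higher and 5 or 7 lower calls were made without monosome replicate 1 or 2, and 4 or 8 higher and 10 or 13 lower calls without polysome replicate 1 or 2.

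Calls became more frequent with the level in the fractions, in the somata-high isoforms as in all isoforms. From 1 to under 5 TPM, 13 of 125 (10.4%) were higher in polysome than in ribosome-free RNA, beside 11.2% of all isoforms at that level. From 5 to under 20 TPM it was 46 of 170 (27.1%) beside 32.4%, and at 20 TPM or more 44 of 101 (43.6%) beside 58.2%. For lower calls the shares were 4.0%, 5.88% and 15.8% beside 6.87%, 11.1% and 15.3%. The gap to the background was thus smallest at the lowest level for higher calls, and at the highest level for lower calls.

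**Figure D4:**
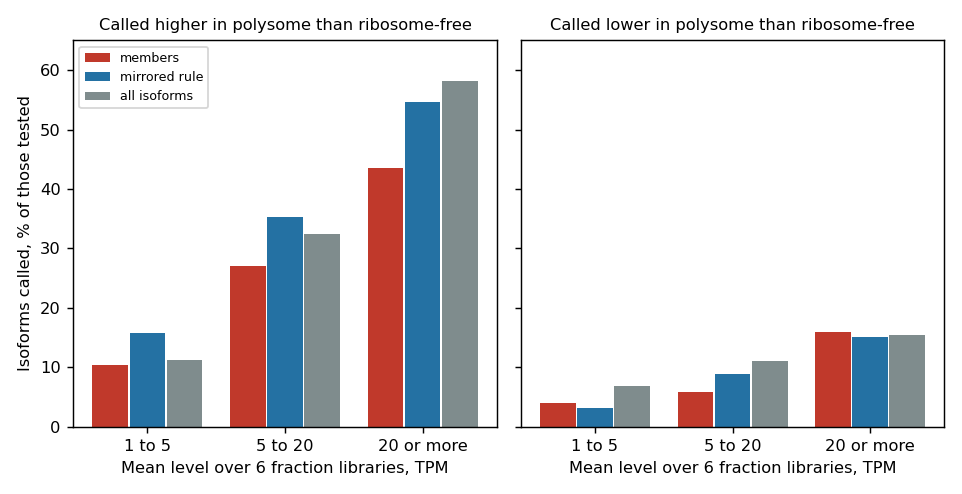
Percent of tested isoforms called higher (left) and lower (right) in polysome than in ribosome-free RNA by limma at an adjusted p under 0.05, by mean level over the 6 fraction libraries, for the 396 somata-high isoforms (red), the mirrored rule (blue) and all tested isoforms (grey). Bars start at 0, carry no error because each is 1 share, and rise with level in all 3 sets, with 43.6% of somata-high and 58.2% of all isoforms called higher at 20 TPM or more.

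By mean level, 166 of the 396 (41.9%) were highest in polysomes, 139 (35.1%) in monosomes and 91 (22.98%) in ribosome-free RNA. Over all tested isoforms, 40.8% were highest in polysomes, 39.2% in monosomes and 3933 of 19667 (19.998%) in ribosome-free RNA. An isoform's polysome level was at the median 36.1% of the sum of its 3 fraction means, both in the somata-high isoforms and over all tested isoforms. In the 10977 other isoforms at 5 TPM or more in both somata libraries, 50.3% were highest in polysomes. With median ratio scaling the share of somata-high isoforms highest in polysomes was 34.6%.

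Of the 12 named isoforms, 3 were higher in polysome than in ribosome-free RNA, against 34.1% of all tested isoforms, and 2 were lower, against 11.1%. Nothing is read from counts this small, and the isoforms are described one by one. Lypd1 had 28.8 and 35.7 TPM in polysomes and 0 and 3.55 TPM in monosomes, while both ribosome-free libraries list it at 0, so no fold is given for that pair (adjusted p = 0.0047, limma). Polysome exceeded monosome RNA by 3.95 on the log2 scale (SE 0.76, adjusted p = 0.021, limma). Without polysome replicate 2 the first call was lost at an adjusted p of 0.053. The second Lypd1 isoform, which was not somata-high, had 23.0 and 26.4 TPM in polysomes and 15.5 and 34.8 TPM in ribosome-free RNA, which overlap.

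Auh had 35.7 and 51.5 TPM in polysomes, 17.7 and 16.3 TPM in monosomes and 14.1 and 4.51 TPM in ribosome-free RNA. Polysome exceeded ribosome-free RNA by 2.26 on the log2 scale (SE 0.51, adjusted p = 0.018, limma). The adjusted p ran from 0.0086 to 0.13 over the alternatives and was 0.073 and 0.063 under the 2 other scalings, 0.057 without either monosome replicate, and 0.086 and 0.13 without polysome replicate 1 and 2, where the excess was 2.52 and 2.0. Ctsk had 14.8 and 14.4 TPM in polysomes, 7.58 and 6.09 TPM in monosomes and 5.13 and 2.48 TPM in ribosome-free RNA, a polysome excess of 1.76 (SE 0.35, adjusted p = 0.012, limma). Its adjusted p was 0.059 under both other scalings and 0.089 and 0.085 without polysome replicate 1 and 2, where the excess was 1.74 and 1.78, and ran from 0.0075 to 0.16 over the alternatives. In both isoforms the polysome values lay above all other fraction values.

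Trpc4 and Prcp,Rab30 went the other way. Trpc4 had 4.89 and 8.54 TPM in ribosome-free RNA, was listed at 0 in both monosome libraries, and had 1.86 and 0 TPM in polysomes, a difference of -2.15 between polysome and ribosome-free RNA (SE 0.64, adjusted p = 0.045, limma). Over the alternatives that adjusted p ran from 0.024 to 0.23, and it was 0.075 with the replicate number as a block, 0.083 and 0.15 without ribosome-free replicate 1 and 2, 0.088 without either monosome replicate and 0.11 without polysome replicate 2. Prcp,Rab30 had 6.35 and 4.90 TPM in ribosome-free RNA, 0 in both monosome libraries, and 1.08 and 0 TPM in polysomes, a difference of -2.19 (SE 0.52, adjusted p = 0.021, limma). Its adjusted p was 0.073 with a pseudocount of 0.1 and 0.062 without ribosome-free replicate 1, and ran from 0.011 to 0.14. Both isoforms were also lower in monosome than in ribosome-free RNA (adjusted p = 0.021 for Trpc4 and 0.013 for Prcp,Rab30, limma).

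The other 7 named isoforms passed in no comparison of fractions, as did 43.0% of all tested isoforms. RGD1305713 had 24.96 and 30.6 TPM in polysomes, 39.2 and 24.6 TPM in monosomes and 3.14 and 16.0 TPM in ribosome-free RNA. The ribosome-free values lay below the others, with a polysome difference of 1.77 (SE 0.69, adjusted p = 0.092, limma). That difference was 0.76 (adjusted p = 0.19) without ribosome-free replicate 1 and 2.79 (adjusted p = 0.015) without ribosome-free replicate 2. Grsf1 had 33.5 and 22.2 TPM in polysomes, 9.10 and 0.02 TPM in monosomes and 8.83 and 30.5 TPM in ribosome-free RNA, with replicates too far apart for a call. Cyp20a1 had 8.91 and 12.6 TPM in polysomes, 18.6 and 20.7 TPM in monosomes and 13.1 and 18.5 TPM in ribosome-free RNA, a polysome difference of -0.51 (SE 0.26, adjusted p = 0.18, limma) that passed at 0.024 and 0.021 under the 2 other scalings. Slc39a7 had 7.60 TPM in one ribosome-free library and was listed at 0 in the other 5 fraction libraries. Anapc4, Gramd1b and the joint isoform of Xkr8 and Smpdl3b stayed under 6 TPM in all 6.

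**Figure D5:**
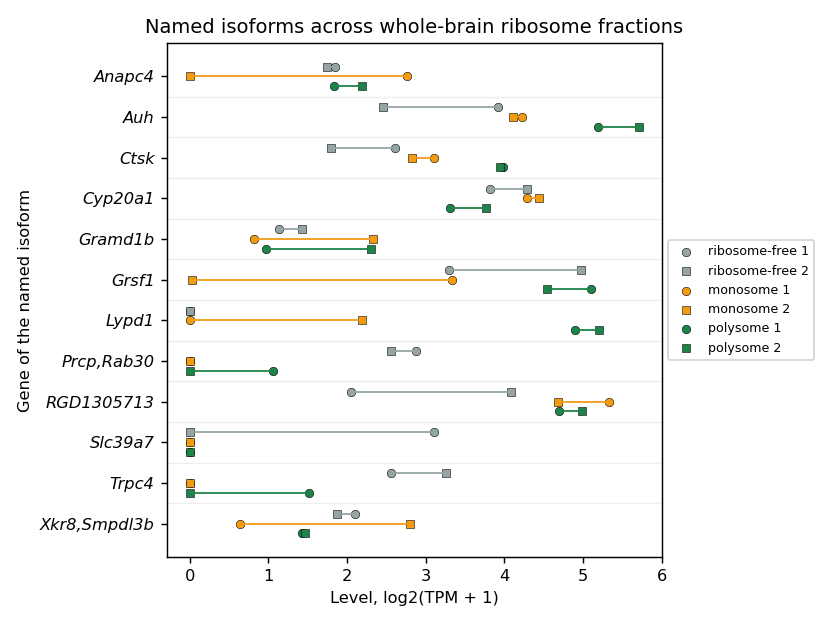
Level of the 12 named isoforms as log2(TPM + 1) on the x axis in ribosome-free (grey), monosome (orange) and polysome (green) RNA of whole brain, with a circle for replicate 1, a square for replicate 2 and a line joining them. Polysome values of Auh, Ctsk and Lypd1 lie to the right of their ribosome-free values, those of Trpc4 and Prcp,Rab30 lie to the left, and Grsf1 spans 9.10 to 0.02 TPM between its monosome libraries.

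The 2 isoforms highest in somata had different profiles over the fractions, which were not tested against each other. The one of 402 nt had 524 and 534 TPM in polysomes, 370 and 444 TPM in monosomes and 542 and 575 TPM in ribosome-free RNA. The polysome and ribosome-free levels differed by -0.08 (SE 0.11, adjusted p = 0.61, limma), a difference that passed at 0.024 and 0.0062 under the 2 other scalings, with -0.55 and -0.74. The one of 4590 nt had 199.9 and 198 TPM in polysomes, 326 and 287 TPM in monosomes and 51.8 and 69.4 TPM in ribosome-free RNA, and was higher in polysome than in ribosome-free RNA by 1.72 (SE 0.16, adjusted p = 0.0011, limma). Its polysome and monosome values both lay above its ribosome-free values in all libraries.

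Larger differences stood among isoforms without a gene name. They are the 2 highest and 2 lowest differences of polysome against ribosome-free RNA among called isoforms that averaged 10 TPM or more over the fractions and whose 2 groups did not overlap. An isoform of 979 nt had 464 and 374 TPM in polysomes, 144 and 49.9 TPM in monosomes and 8.39 and 0 TPM in ribosome-free RNA, a polysome excess of 7.09 (SE 1.12, adjusted p = 0.0056, limma). It had 43.9 and 107 TPM in somata and was listed at 0 in both neuropil and both hippocampus libraries. Without polysome replicate 1 or 2 the excess was 6.94 or 7.25 and its adjusted p 0.065 or 0.059. An isoform of 2473 nt had 54.7 and 36.4 TPM in polysomes, 32.1 and 27.5 TPM in monosomes, and 0 in both ribosome-free libraries (adjusted p = 0.00027, limma). It had 22.4 and 18.9 TPM in somata and 14.6 and 9.32 TPM in hippocampus.

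At the other end, an isoform of 2118 nt had 519 and 533 TPM in ribosome-free RNA, 1.43 and 85.8 TPM in monosomes and 0 and 7.12 TPM in polysomes, a difference of -7.53 (SE 1.87, adjusted p = 0.025, limma). Its adjusted p ran from 0.011 to 0.17 over the alternatives. It was 0.13 without either ribosome-free replicate, 0.17 without polysome replicate 1 and 0.079 without polysome replicate 2. An isoform of 1257 nt had 158 and 165 TPM in ribosome-free RNA and was listed at 0 in all 4 monosome and polysome libraries (adjusted p = 0.00021, limma). In somata it had 114 and 89.4 TPM, and in hippocampus 54.3 and 72.2 TPM. The somata-high isoforms thus included some at far higher TPM in polysome RNA and some at far higher TPM in ribosome-free RNA of whole brain.

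Read lengths of the somata-high isoforms ran from 402 to 7132 nt with a median of 2154 nt and quartiles of 1386 and 2806 nt. The median was 2235 nt over all isoforms, 2351 nt over the mirrored rule and 2243 nt over the other isoforms at 5 TPM in both somata libraries. Reads of up to 1000 nt made up 10.1% of the somata-high isoforms and 7.66% of all, and reads over 4000 nt 4.40% and 4.82%. Circular consensus reads gave 344 of the 455 (75.6%), beside 72.4% of all isoforms.

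Fraction calls also went with length. Of 40 tested somata-high isoforms of up to 1000 nt, 3 (7.50%) were higher in polysome than in ribosome-free RNA, beside 21.4% of all isoforms of that length. The counts were 30 of 141 (21.3%) from over 1000 to 2000 nt beside 33.4%, 42 of 136 (30.9%) from over 2000 to 3000 nt beside 34.5%, and 28 of 79 (35.4%) over 3000 nt beside 39.2%. Lower calls were 2 of 40 (5.0%) up to 1000 nt beside 24.2% of all isoforms of that length, then 13 of 141 (9.22%) beside 12.1%, 12 of 136 (8.82%) beside 9.43%, and 4 of 79 (5.06%) beside 7.25%. The somata-high isoforms of up to 1000 nt were thus called at a lower share in both directions. The median log2 difference over these 4 groups was -0.25, 0.48, 0.67 and 1.0 in the somata-high isoforms, and -0.09, 0.62, 0.67 and 0.80 over all isoforms.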

How the data were processed

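Illumina RNA-seq of 12 rat libraries was used, 2 each of whole hippocampus, CA1 somata, CA1 neuropil and of ribosome-free, monosome and polysome RNA from whole brain. The 6 ribosome footprinting libraries were not analysed here. The authors trimmed adapters with flexbar, mapped reads to the 28268 FLTs with Bowtie 2 and estimated isoform levels with RSEM, and the deposited values are TPM with 2 decimals in 3 tables, with replicates kept apart. Processing notes of the submitters also name TopHat2 and rn6. RSEM versions are not given in the sources used here. Hippocampus libraries were made from mRNA and read from a single end, while the RSEM arguments stated are for paired ends, and the fractions were made with a total RNA kit. Levels of different tables are therefore given side by side without a test. TPM keep no read counts, so depth is unknown and no counting interval was computed. A value of 0 is an estimate by RSEM, which divides shared reads among similar isoforms.

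Isoforms were selected in Python 3.11.15 with pandas 2.3.3 and numpy 2.4.6 by the rule given above, which used the somata and neuropil values. The members and the gene lists were chosen with earlier results of these data known. Fractions were compared in R 4.3.3 with limma 3.58.1 (lmFit, eBayes with trend) on log2(TPM + 1), 1 fit over 6 libraries, two-sided, with Benjamini-Hochberg adjustment over the 19667 isoforms whose mean reached 1 TPM. Fold changes are on the log2(TPM + 1) scale, which understates changes of low isoforms. On simulated data, 200 of 19667 isoforms were shifted by 3 log2 units, all drawn from those with a mean of at least 10 TPM. The test recovered 155 with 3 false calls. With none shifted it made 0 calls, with an unadjusted p under 0.05 for 5.42% of isoforms. No isoform with a mean under 10 TPM was shifted, recovery above that was not split by level, and smaller shifts were not tried. Of the tested somata-high isoforms, 125 had a mean from 1 to under 5 TPM and 170 from 5 to under 20 TPM. Recovery was not simulated under 10 TPM and not separately from 10 to under 20 TPM, so the 155 recovered cannot stand for these levels. Alternatives changed the pseudocount, the filter, the scaling, the prior variance, the libraries in the fit, the replicate block, a required fold change and the limits of the rule. Named isoforms are all members with a gene name, the 2 unnamed members with the highest lower somata value, and the 2 highest and 2 lowest called differences of polysome against ribosome-free RNA at a mean of at least 10 TPM without overlap. Read length was taken from the isoform identifier. Plots were drawn with matplotlib 3.10.9.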

Additional observations from a re-analysis of the deposited data

How the results depend on the processing

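Of 123 alternatives to counts and medians, 76 stayed within 1.5 times the reported count or within the replicate spread. Median read lengths have no such spread, and every alternative unequal to the reported median was counted as moved, however close. The number of somata-high isoforms became 869 with at least 1 TPM, 278 with at least 10 TPM, 240 with a ratio of at least 3 and 191 with a ratio of at least 4, and lay between 1099 and 1613 when 1 library of the layers was left out. It stayed at 533 and 467 under quantile normalization and median ratio scaling, which kept 447 and 452 of the 455. Median hippocampus level was 6.62 TPM at a ratio of at least 4 and 17.7 TPM with at least 10 TPM. Median read length was 2029, 2163 and 2164 nt at a ratio of at least 4, at least 10 TPM and at least 1 TPM.

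In polysome against ribosome-free RNA, the somata-high calls were 59 higher and 49 lower under quantile normalization, 62 and 58 under median ratio scaling, and 40 and 12 with a required fold change of 2. In monosome against ribosome-free RNA these were 52 and 41, 43 and 44, and 19 and 2, with 14 lower calls when no filter was used. In polysome against monosome RNA a required fold change of 2 left 2 higher and 2 lower, and no filter gave 18 lower. Leaving out 1 library gave 62 to 110 higher and 20 to 34 lower in polysome against ribosome-free RNA, 43 to 94 and 9 to 21 in monosome against ribosome-free RNA, and 4 to 35 and 5 to 30 in polysome against monosome RNA. The share highest in polysomes was 35.9% under quantile normalization and 34.6% under median ratio scaling. The cause of these shifts was not tested.

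Across isoforms, deviations of same-numbered fraction libraries from their group means correlated at 0.003, 0.002 and -0.01. These values cannot show whether same-numbered libraries came from the same gradient, which the methods do not state. The replicate block gave 102 higher and 28 lower calls in polysome against ribosome-free RNA, 83 and 23 in monosome against ribosome-free RNA, and 22 and 21 in polysome against monosome RNA.

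For single isoforms, 192 of 234 alternative values of the polysome against ribosome-free difference kept their direction and side of the threshold, 29 lost a call, 6 gained one and 7 changed sign or fell to 0. The last were Anapc4 at -0.12 and -0.27 under quantile normalization and median ratio scaling, Gramd1b at -0.066 and -0.055 under the same and -0.31 without polysome replicate 2, Grsf1 at -0.15 and Slc39a7 at 0, both without ribosome-free replicate 1. With 1 library left out, Gramd1b ran from -0.31 to 1.02, Grsf1 from -0.15 to 1.53 and Slc39a7 from -3.10 to 0. As deposited, these 4 isoforms were not called. TPM hold no read counts, so what depth limits cannot be given.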
